A study of Mus musculus with 23 samples.

Results

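The genes described here are 32 enzymes, regulators and transporters of sterol and fatty acid synthesis. They were chosen by name from the 35523 genes measured by RNA-seq in 23 mouse libraries, with earlier results of these data known. Shares of all genes given beside their counts therefore serve as description only. By pathway step, 7 act in the mevalonate pathway (Acat2, Hmgcs1, Mvk, Pmvk, Mvd, Idi1 and Fdps) and 11 in the later steps that lead from farnesyl units to sterols (Fdft1, Sqle, Lss, Cyp51, Tm7sf2, Msmo1, Nsdhl, Hsd17b7, Ebp, Sc5d and Dhcr7). Another 5 regulate the pathway or move sterols (Srebf1, Srebf2, Scap, Insig1 and Stard4), and 9 make, lengthen or desaturate fatty acids (Acly, Acss2, Acaca, Fasn, Scd1, Scd2, Elovl6, Fads1 and Fads2). All 32 passed the filter on low counts in every comparison.

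The libraries come from mouse pancreatic stellate cells (PSCs), which can turn into fibroblasts around a tumour, and from pancreatic tumour organoids. Both were grown together in Matrigel for 3.5 days and then separated by flow sorting into a PSC fraction and an organoid fraction. The PSC fraction has 4 Egfr wild-type (WT) libraries, named Rosa in the labels, and 8 Egfr knockout (KO) libraries. For organoids there are 4 libraries from cultures with WT PSCs and 7 from cultures with KO PSCs, and the labels describe no edit in the organoids themselves. There are 2 PSC parents, PSC4 (Rosa, clones A3 and B4) and PSC5 (Rosa, clones C5 and D4), and 3 organoid lines, T6-LOH, T12-LOH and T69A. PSC4 lines were grown with each organoid line and PSC5 lines with T6-LOH only, and the organoid library of T69A with A3 was not analysed here. Each KO line is 1 clone, so the 8 KO libraries stand for 4 clones and differences between clones cannot be told apart from the knockout within 1 clone. The labels do not say whether libraries were separate cultures, so p-values measure the spread between these libraries only. The labels give neither the alleles nor the age of the animals the lines came from.

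Egfr, the epidermal growth factor receptor gene, served as a check. Its level, in counts scaled to library size (CPM), was 278 to 420 CPM in WT PSCs and below the own Rosa library in all 8 KO libraries, at 20.7 to 35.9% of it in A3, 41.7 to 76.5% in B4, 26.3% in C5 and 82.2% in D4. The edited part of the gene is not given, so a transcript level does not show whether protein was made. The 12 PSC libraries held from 21823084 to 34828131 estimated counts each, and the 11 organoid libraries from 23814409 to 34643087. The summed level of 10 epithelial markers was 21.4 to 153 CPM in PSCs and 14260 to 19720 CPM in organoids. That of 10 fibroblast markers was 5841 to 16410 CPM in PSCs and 1.55 to 24.4 CPM in organoids, so the sorted fractions carried the markers of their labels. Of 6 adipocyte markers only Retn reached 1 CPM in PSCs and only Cidec in organoids.

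Cells build cholesterol from acetyl-CoA through mevalonate, which also gives the isoprenoid tails of prenylated proteins, and make fatty acids from the same acetyl-CoA through malonyl-CoA. The transcription factors SREBP-2 and SREBP-1, encoded by Srebf2 and Srebf1, drive most of these enzymes when membrane sterol is low. Scap carries the SREBP precursors to the Golgi for cleavage, and Insig1 holds Scap back in the endoplasmic reticulum when sterol is plentiful.

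The sequences upstream of the genes were read because the members share these regulators. Any member promoters on 1 chromosome were left out before matching. RefSeq promoters of build GRCm38.p6, covering 250 bases before to 50 bases after each start site, matched 25 of the 32 members. This build is not that of the libraries, and the coordinates serve only to place the sequences. The letters TCACNCCAC, a form of the sterol regulatory element, occurred on either strand in 1 of 25 members (Hmgcs1) and in 1.44% of all genes. CCAAT, the core of the NF-Y binding site, occurred in 20 of 25 members and in 41.1% of all genes, and in 9 of 9 late sterol members. GGGCGG, a GC box, occurred in 21 of 25 members and in 38.2% of all genes, and CACGTG, an E-box, in 5 of 25 and in 8.09%. The 150 bases just before the start site are shown for Hmgcs1, which holds the sterol element, for Mvk and Mvd, mevalonate genes with CCAAT on both strands, for Sc5d, a late sterol gene that also changed in organoids, for Ebp, the late sterol gene that differed least in KO PSCs, and for Fasn, with CCAAT matches that overlap. Capitals mark the sterol element letters and CCAAT or its reverse complement ATTGG. The sequences lie at chr13:119690201-119690350 (plus strand), chr5:114444119-114444268 (plus), chr8:122443423-122443572 (minus), chr9:42264301-42264450 (minus), chrX:8193513-8193662 (minus) and chr11:120824548-120824697 (minus), in the order printed, and none overlaps an annotated exon.
Hmgcs1: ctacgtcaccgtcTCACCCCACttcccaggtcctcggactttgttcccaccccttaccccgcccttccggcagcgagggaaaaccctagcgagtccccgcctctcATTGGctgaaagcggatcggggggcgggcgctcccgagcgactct
Mvk: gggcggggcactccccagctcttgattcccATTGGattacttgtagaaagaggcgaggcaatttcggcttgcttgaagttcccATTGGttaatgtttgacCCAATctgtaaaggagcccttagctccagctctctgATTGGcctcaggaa
Mvd: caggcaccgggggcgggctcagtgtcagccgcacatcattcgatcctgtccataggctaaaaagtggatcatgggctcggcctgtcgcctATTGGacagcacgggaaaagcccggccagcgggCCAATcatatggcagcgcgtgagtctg
Sc5d: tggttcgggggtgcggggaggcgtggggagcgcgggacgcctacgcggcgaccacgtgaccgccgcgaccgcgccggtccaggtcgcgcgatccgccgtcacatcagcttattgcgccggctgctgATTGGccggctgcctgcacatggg
Ebp: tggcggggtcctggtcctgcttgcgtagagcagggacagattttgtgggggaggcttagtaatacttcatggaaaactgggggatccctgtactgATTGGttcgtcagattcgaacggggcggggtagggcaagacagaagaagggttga
Fasn: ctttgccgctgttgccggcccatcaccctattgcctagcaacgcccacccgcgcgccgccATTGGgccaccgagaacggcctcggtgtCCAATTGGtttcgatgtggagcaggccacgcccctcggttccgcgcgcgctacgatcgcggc
A match of letters is a description of the window and not a binding site.

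In PSCs the members were lower with the Egfr knockout in nearly every library, by amounts that differed strongly between clones, and none passed the test over all genes. Of the 32 members, 31 had a negative log2 difference between KO and WT, and Scap alone a positive one (0.18). The median was -0.68 over the mevalonate genes, -0.47 over the late sterol genes, -0.28 over regulation and transport and -0.40 over the fatty acid genes, against 0.0029 over all 14756 genes tested. By edgeR's quasi-likelihood test, blocked on co-culture, 0 of 32 members had an adjusted p under 0.05, where 0.0949% of all genes did (0.0678% lower and 0.0271% higher). At an unadjusted p under 0.05, 22 members were lower and 0 higher, where 13.5% of all genes differed (6.87% lower and 6.63% higher). DESeq2 called 6 members lower (Acat2, Pmvk, Idi1, Fdps, Srebf2 and Elovl6), where it called 2.15% of the genes to which it gave an adjusted p, and limma with PSC line as a random effect called 0. Since libraries of 1 clone resemble each other (correlation of 0.714 over genes after co-culture and genotype), the 8 KO libraries carry less information than 8 clones would.

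Within a co-culture both KO clones were set against the same Rosa library, called their own here, so the 8 differences are not independent. In all 8 KO libraries the mean over each of the 4 steps was below that of the own Rosa library, and 17 of 32 members were below it in all 8, against 5.27% of genes whose mean reached 1 CPM. Above it in all 8 were 0 members, against 5.13% of genes. Groups did not overlap, with all KO below all WT libraries, for 5 of 32 members (Acat2, Pmvk, Fdps, Srebf2 and Fasn), against 1.03% of genes. The mean difference over the 32 members, on log2(CPM + 0.5), was -0.061 for A3, -0.26 for B4, -0.57 for C5 and -0.24 for D4 with T6-LOH, -0.45 for A3 and -1.03 for B4 with T12-LOH, and -0.33 for A3 and -0.68 for B4 with T69A. The smallest difference, in A3 with T6-LOH, covered 20 members below Rosa, and the largest, in B4 with T12-LOH, 31. B4 was below A3 with each of the 3 organoid lines.

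**Figure D1:**
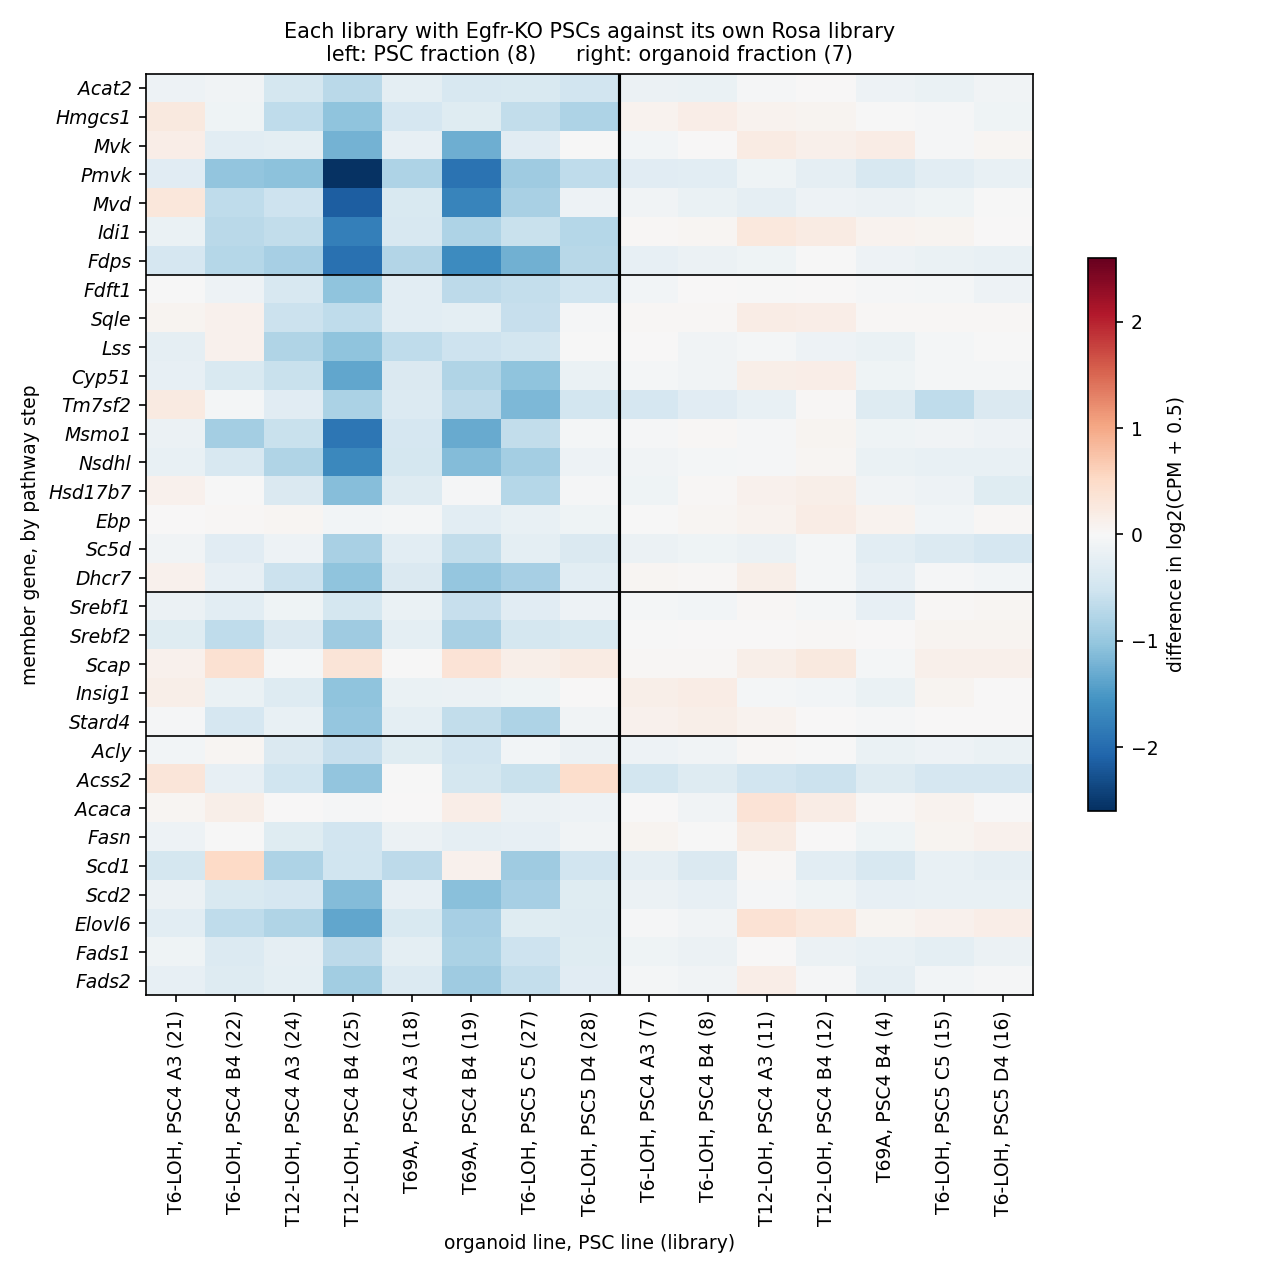
Difference in log2(CPM + 0.5) of each member from the Rosa library of the same co-culture (colour scale), with members in rows by pathway step and libraries in columns, 8 of the PSC fraction on the left and 7 of the organoid fraction on the right. Blue fills most of the PSC side and is deepest in B4 with T12-LOH and T69A, while the organoid side stays pale except for Acss2 and Tm7sf2.

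In the mevalonate pathway, Fdps, which makes farnesyl diphosphate, was at 226, 299, 268 and 196 CPM in the Rosa libraries with T6-LOH, T12-LOH, T69A and, for PSC5, T6-LOH. It was at 167, 165 and 158 CPM in A3 and at 136, 78.1 and 86.2 CPM in B4 with the 3 organoid lines in the same order, and at 82.6 CPM in C5 and 119 CPM in D4. All KO values lay below all WT values, and the log2 difference was -1.01 (SE 0.237, adjusted p = 0.149 in edgeR). Pmvk, the phosphomevalonate kinase, was lower still, at 9.12 to 29.0 CPM in KO (median 18.7) against 32.2 to 56.8 CPM in WT (log2 difference -1.12, SE 0.323, adjusted p = 0.213). Acat2, which joins acetyl-CoA units at the entry of the pathway, had a small and even difference, with 142, 149, 165 and 183 CPM in WT and 100.1 to 140 CPM in KO (-0.38, SE 0.091, adjusted p = 0.149). Hmgcs1, the next enzyme, overlapped between groups, with 231 to 327 CPM in WT and 132 to 381 CPM in KO (-0.49, SE 0.152, adjusted p = 0.241). Its highest value of all 12 libraries was in A3 with T6-LOH, a KO library. Idi1, the isomerase before Fdps, was at 92.5 to 218 CPM in KO and 175 to 318 CPM in WT, and below its Rosa library in all 8.

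Among late sterol genes, Fdft1, which makes squalene, was at 95.1, 121, 140 and 151 CPM in WT and 62.0 to 120 CPM (median 98.5) in KO (log2 difference -0.47, SE 0.148, adjusted p = 0.249). Lss, which closes the ring to lanosterol, was at 78.5, 102, 120 and 137 CPM in WT and 56.5 to 111 CPM (median 78.4) in KO (-0.47, SE 0.151, adjusted p = 0.251). Both overlapped between groups. Sqle, the epoxidase between them, differed less, with 193 to 266 CPM in WT and 127 to 243 CPM in KO (-0.29, SE 0.128), and it was above Rosa in both PSC4 clones with T6-LOH. Nsdhl, a demethylation enzyme, was below its Rosa library in all 8 KO libraries, from 31.1% of it in B4 with T12-LOH to 90.9% in D4. Ebp, the sterol isomerase, moved least of the step, with 56.9 to 59.7 CPM in WT and 49.0 to 60.8 CPM in KO (-0.089, SE 0.0763).

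Of the regulators, Srebf2 was at 622, 629, 674 and 744 CPM in WT and at 378 to 573 CPM in KO, with no overlap (log2 difference -0.52, SE 0.144, adjusted p = 0.197). The 3 B4 libraries were the 3 lowest, at 398, 392 and 378 CPM, and A3 was at 506, 573 and 566 CPM. Srebf1 was at 121, 129, 139 and 141 CPM in WT and 92.4 to 129 CPM (median 107) in KO (-0.28, SE 0.108, adjusted p = 0.316). Insig1 overlapped widely (235 to 443 CPM in WT, 214 to 433 CPM in KO). Stard4, a cytosolic sterol carrier, was below its Rosa library in all 8 KO libraries, at 49.8% of it in B4 with T12-LOH and 97.7% in A3 with T6-LOH.

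Of the fatty acid genes, Elovl6, which lengthens palmitate, had the smallest p, with 119, 157, 174 and 215 CPM in WT and 84.5 to 132 CPM (median 97.7) in KO (log2 difference -0.62, SE 0.161, adjusted p = 0.173). The overlap came from the PSC5 Rosa library, the lowest of the WT group. Fads2, the delta-6 desaturase, was at 204, 251, 306 and 317 CPM in WT and 133 to 265 CPM (median 185) in KO (-0.48, SE 0.152, adjusted p = 0.251). Fasn, the fatty acid synthase, was at 456, 478, 479 and 562 CPM in WT and 395 to 453 CPM in KO, which did not overlap although the log2 difference was -0.22 (SE 0.0827, adjusted p = 0.311). The stearoyl-CoA desaturases Scd1 and Scd2 are related paralogs, and reads that fit both were split between them by estimate. Scd2 was at 1543, 1997, 2021 and 2372 CPM in WT and 848 to 2033 CPM in KO and below Rosa in all 8 KO libraries (-0.55, SE 0.199). Scd1 was above its Rosa library in B4 with T6-LOH (598 against 419 CPM) and with T69A (588 against 546 CPM) and below it in the other 6 (-0.40, SE 0.215). Acaca, the acetyl-CoA carboxylase ahead of Fasn, was level at 119 to 142 CPM in WT and 120 to 147 CPM in KO.

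**Figure D2:**
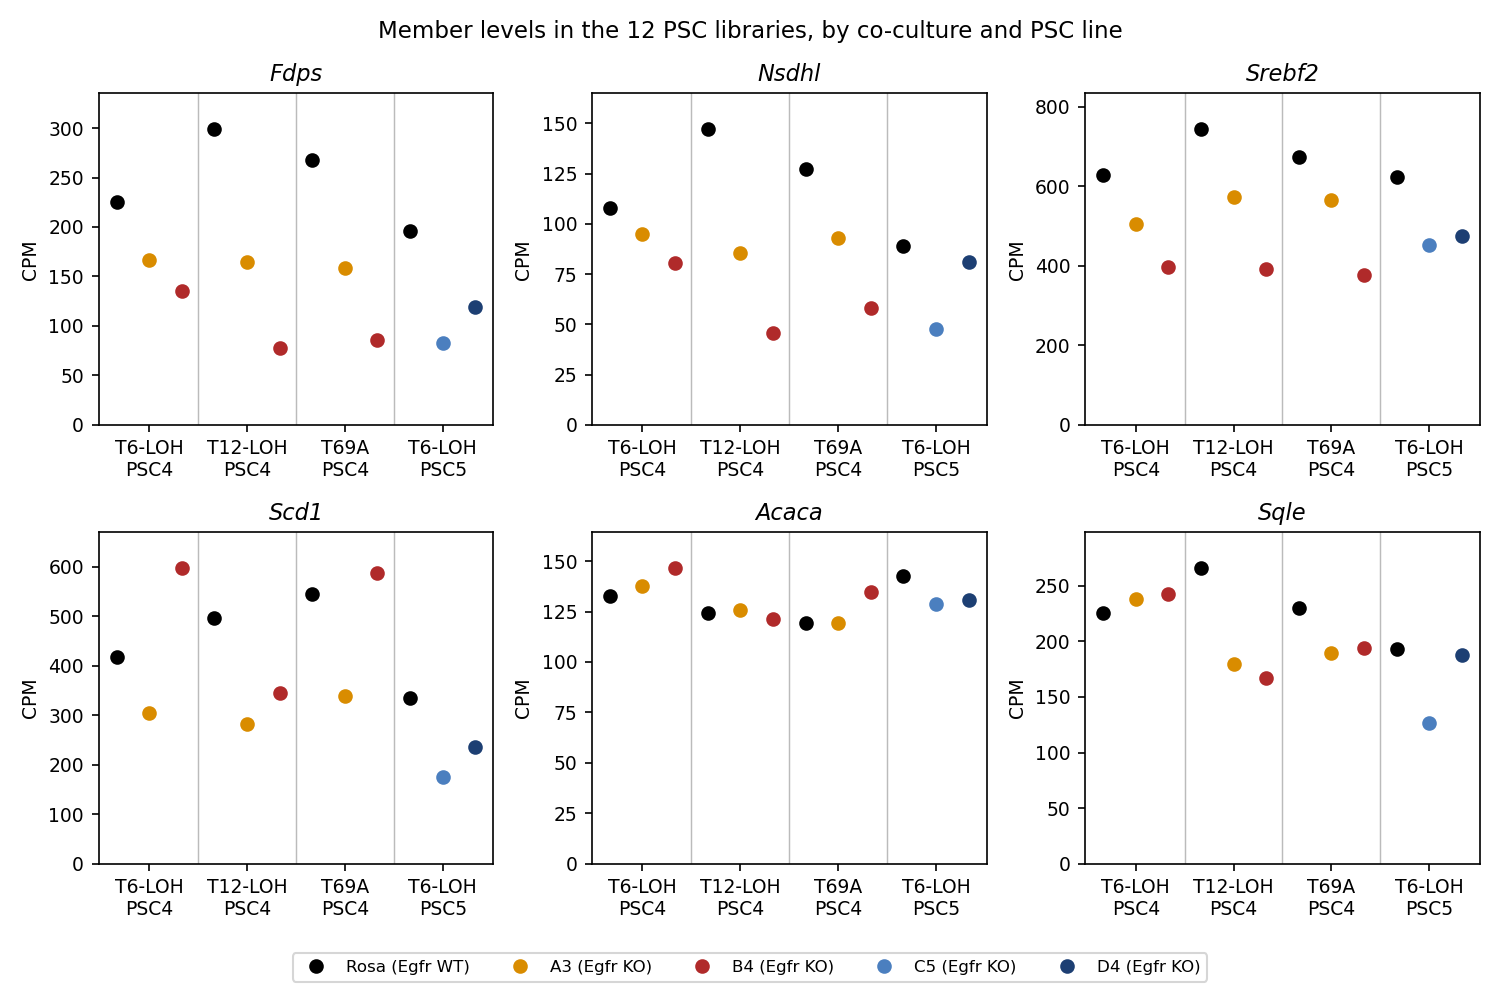
CPM (y axis, from 0) of Fdps, Nsdhl, Srebf2, Scd1, Acaca and Sqle in the 12 PSC libraries, by co-culture (x axis) with 1 point per library and colours for PSC lines. Fdps and Srebf2 show every KO point below every Rosa point, Scd1 shows B4 above Rosa with T6-LOH and T69A, and Acaca is level at 119 to 147 CPM.

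Leaving out the 3 B4 libraries, a choice made after seeing the data, gave medians of -0.42, -0.36, -0.16 and -0.26 for the 4 steps in the order above, and 0 members passed. Mitochondrial transcripts took 2.15% ± 0.201 of counts in WT PSCs (SD, n = 4) and 2.6% ± 0.237 in KO PSCs (SD, n = 8), and 10 of 10 fibroblast markers had a negative difference with a median of -0.28 and 0 called. The part of either in the members' differences was not tested.

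**Figure D3:**
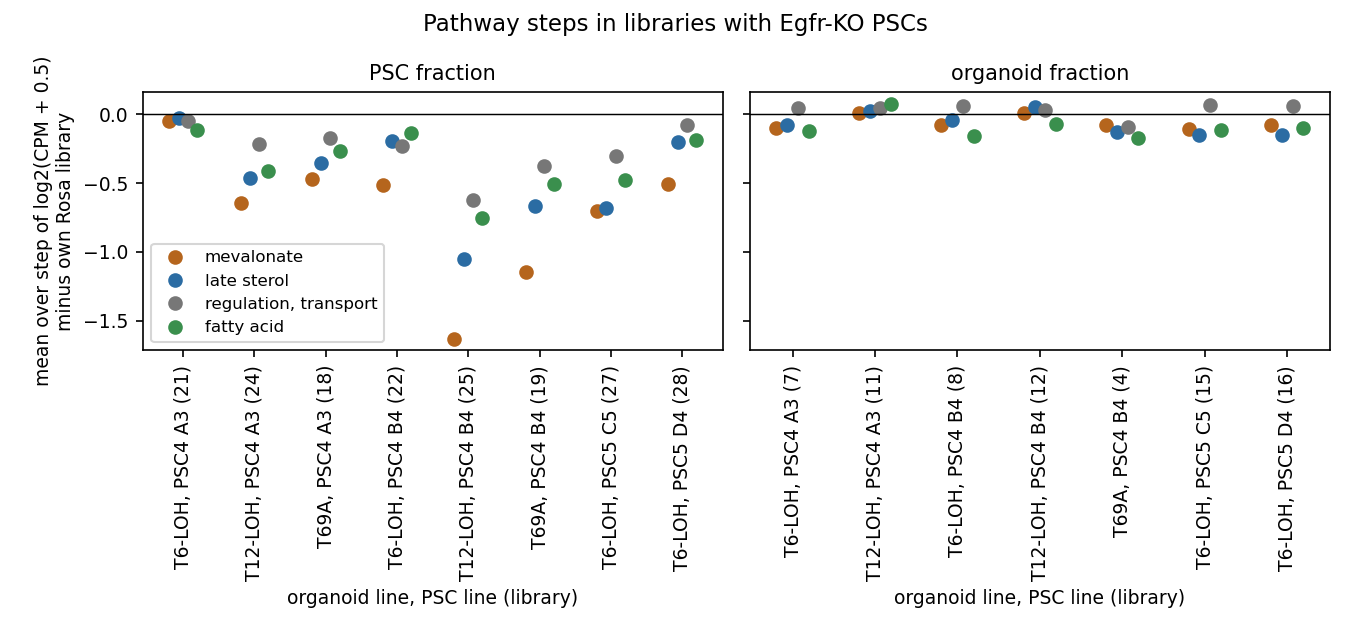
Mean over the genes of a step of the difference in log2(CPM + 0.5) from the own Rosa library (y axis), for the 8 KO libraries of the PSC fraction (left) and the 7 organoid libraries grown with KO PSCs (right), with 1 point per step and library. PSC libraries range from near 0 in A3 with T6-LOH to -1.63 for mevalonate genes in B4 with T12-LOH, and organoid libraries lie between -0.17 and 0.076.

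The clones of PSC4 were compared over 3 organoid lines each. Both clones were set against the same Rosa libraries. B4 had 23 members lower and 1 higher (Scap, 0.34), where 49.3% of all genes passed (24.6% lower and 24.7% higher). The medians were -1.11 for mevalonate, -0.62 for late sterol, -0.47 for regulation and transport and -0.60 for fatty acid genes. Pmvk fell by 1.89 on the log2 scale (SE 0.282, adjusted p = 0.00257), Mvd, the diphosphomevalonate decarboxylase, by 1.55 (SE 0.277, adjusted p = 0.00563), Fdps by 1.45 (SE 0.224, adjusted p = 0.00299) and Msmo1, a sterol methyl oxidase, by 1.38 (SE 0.169, adjusted p = 0.000811), all in edgeR. Mvd was at 31.7, 16.3 and 19.5 CPM in B4 against 50.6, 74.2 and 64.9 CPM in Rosa. Srebf2 fell by 0.82 (SE 0.0725, adjusted p = 0.000108) and Srebf1 by 0.47. The 8 members that did not pass were Hmgcs1, Sqle, Lss, Hsd17b7, Ebp, Insig1, Acaca and Scd1. Leaving out 1 library at a time gave 19 to 27 members, and 18 of the 24 passed each time.

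Against Rosa, A3 had 1 member lower, Srebf2 (-0.31, SE 0.072, adjusted p = 0.0421), where 7.34% of all genes passed (4.04% lower and 3.3% higher). This call was lost without any 1 of the 3 Rosa or the 3 A3 libraries, while 5 members passed without B4 with T12-LOH and 4 without B4 with T6-LOH, which share the estimate of spread. At an unadjusted p under 0.05, 10 members were lower and 0 higher in A3, where 11.9% of all genes were lower. DESeq2 called 6 lower, where it called 5.22% of genes lower, among them Fdps, Pmvk and Scd1 (edgeR log2 differences of -0.70, -0.76 and -0.66). The difference between the clones itself passed for 18 members, where 48% of all genes passed (24.1% higher in A3 and 23.8% lower). Of these 16 were higher in A3, led by Mvd (1.30, adjusted p = 0.0109), Pmvk (1.13, adjusted p = 0.0189) and Msmo1 (0.98, adjusted p = 0.00351), and 2 were lower in A3, Scap (-0.32) and Scd1 (-0.68). Scd1 was at 305, 283 and 339 CPM in A3 against 598, 346 and 588 CPM in B4. This count fell to 7 without B4 with T69A, to 8 without A3 with T69A and to 11 without A3 with T6-LOH, and 7 members passed each time (Srebf2, Scap, Msmo1, Fads1, Stard4, Srebf1 and Sc5d).

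**Figure D4:**
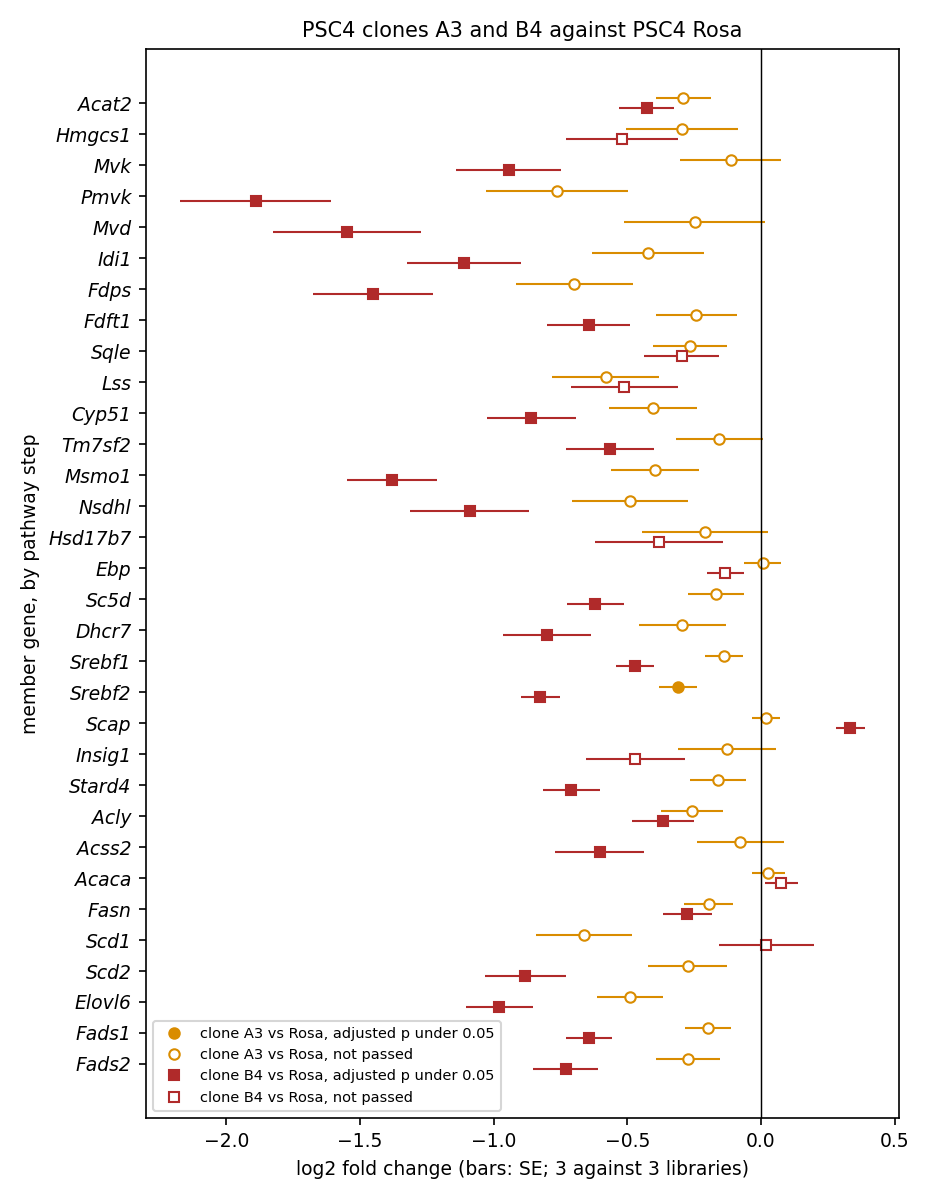
Log2 fold change of each member (x axis) in clone A3 (circles) and clone B4 (squares) against PSC4 Rosa, with bars of 1 SE over 3 against 3 libraries, filled where the adjusted p was under 0.05. B4 has 24 filled points, 23 of them below 0, and A3 has 1, Srebf2.

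By partner, PSC4 cells grown with T12-LOH had 1 member lower than with T6-LOH, Acss2, the cytosolic acetyl-CoA synthetase (-0.96, SE 0.168, adjusted p = 0.0104), where 17.3% of all genes passed (9.03% lower and 8.3% higher). Acss2 was at 18.6, 12.8 and 8.85 CPM with T12-LOH (Rosa, A3, B4) and at 25.1, 31.2 and 21.5 CPM with T6-LOH, which did not overlap. The call was lost without A3 with T6-LOH or without A3 with T12-LOH, and the count rose to 5 without B4 with T6-LOH, to 3 without Rosa with T12-LOH and to 2 without Rosa with T6-LOH. With T69A against T6-LOH, edgeR called 0 members, where 4.11% of all genes passed (1.4% lower and 2.71% higher), 2 were lower at an unadjusted p under 0.05, where 12.1% of all genes were, and DESeq2 called Scap lower, where it called 3.41% of genes lower.

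By parent, 27 of 32 members were lower in PSC5 than in PSC4 lines grown with T6-LOH, with medians of -0.46 for mevalonate and -0.49 for late sterol genes, and 0 passed in edgeR, where 0.014% of all genes did. At an unadjusted p under 0.05, 16 members were lower, where 5.78% of all genes were, and DESeq2 called 5 lower (Hmgcs1, Idi1, Fdft1, Cyp51 and Insig1), where it called 1.62% of genes lower. Insig1 was at 235, 216 and 237 CPM in PSC5 Rosa, C5 and D4 and at 392, 433 and 348 CPM in PSC4 Rosa, A3 and B4, with no overlap (-0.78, adjusted p = 0.22). The KO difference itself was compared between the parents by an interaction. In edgeR 0 members passed, where 0% of all genes did, and DESeq2 also called 0 members. At an unadjusted p under 0.05 in edgeR there were 0 members, where 734 of 15336 genes were under it. The median over members of that difference was 0.068.

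Next to KO PSCs, organoids had 7 of 32 members lower and 0 higher, by 0.15 to 0.44 on the log2 scale, where 9.16% of all genes passed (5.34% lower and 3.82% higher). The step medians were -0.12 for mevalonate, -0.053 for late sterol, 0.017 for regulation and transport and -0.11 for fatty acid genes, against -0.012 over all 14750 genes tested. By library the mean over the 32 members lay between -0.13 and 0.038. The 7 KO libraries were entirely below the WT libraries for 0 of 32 members, against 0.264% of genes, and entirely above them for none. KO libraries of the same co-culture share a WT library. By co-culture, 6 members were below their own WT library in all 7, against 10.3% of genes. Above it in all 7 were 2 members, Idi1 and Sqle, against 9.35% of genes, and neither passed the test.

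Acss2 had the smallest p of the members, with 71.7, 35.6, 80.2 and 73.1 CPM in the WT libraries (T6-LOH, T12-LOH and T69A with PSC4, T6-LOH with PSC5). Against these it was at 51.1 and 56.5 CPM with A3 and B4 in T6-LOH, 25.1 and 24.2 CPM in T12-LOH, 63.2 CPM with B4 in T69A, and 53.8 and 53.6 CPM with C5 and D4. It was below its control in 7 of 7 libraries and fell by 0.44 on the log2 scale (SE 0.0471, adjusted p = 0.00139 in edgeR). Pmvk fell by 0.28 (SE 0.0485, adjusted p = 0.00826), from 50.2 to 99.2 CPM in WT (median 58.2) to 41.5 to 74.7 CPM (median 48.4), and was lower in 7 of 7. Fdps fell by 0.15 (SE 0.0414, adjusted p = 0.0439), with 359 to 458 CPM in WT and 313 to 415 CPM with KO PSCs.

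Tm7sf2, a sterol reductase, fell by 0.34 (SE 0.0797, adjusted p = 0.0267), from 43.8, 62.6, 64.2 and 107 CPM in WT to 38.2 to 84.6 CPM, and was lower in 6 of 7 libraries. Sc5d, the lathosterol oxidase, fell by 0.23 (SE 0.0523, adjusted p = 0.0223), from 337 to 508 CPM in WT to 263 to 488 CPM, and was lower in 7 of 7. Both desaturases fell, Scd1 by 0.26 (SE 0.0619, adjusted p = 0.026) and Scd2 by 0.17 (SE 0.0424, adjusted p = 0.0308). Scd1 was at 460, 588, 594 and 958 CPM in WT and 378 to 722 CPM with KO PSCs, and Scd2 at 3102, 4140, 4366 and 6080 CPM and 2882 to 5236 CPM. The regulators did not pass. Srebf2 was at 471 to 589 CPM in WT and 472 to 605 CPM with KO PSCs (0.017, SE 0.0362), and the smallest p in that step was that of Scap (0.079, adjusted p = 0.306) and then of Srebf1 (-0.060, adjusted p = 0.422). Hmgcs1 was at 539 to 784 CPM in WT and 521 to 779 CPM with KO PSCs, Sqle at 211 to 753 and 238 to 770 CPM, and Lss at 182 to 281 and 176 to 250 CPM. Insig1 was at 279 to 417 and 276 to 409 CPM and Fasn at 596 to 882 and 625.3 to 821 CPM. These 5 had log2 differences between -0.083 and 0.066, and none of them passed.

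Pmvk and Acss2 passed with any 1 library left out, and the other 5 were lost in at least 1 case. The count was 2 without the T69A organoids grown with WT PSCs, without those grown with B4 or without both, 2 without the WT library of T6-LOH with PSC5, 3 without that of T6-LOH with PSC4, and 4 without T6-LOH with A3 or with D4. With no co-culture block it was 0. Fibroblast markers in these libraries were also lower with KO PSCs, at 1.55 to 6.54 CPM summed over 10 markers against 4.81 to 24.4 CPM, with 4 of 6 tested markers called lower and Lum at 0 in all 7. In sorted bulk fractions, fewer carried-over PSCs and less RNA per PSC cannot be told apart, and the part of carried-over RNA in the members' differences was not tested. Both fractions of a co-culture share their PSC line.

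The KO difference of PSCs minus that of organoids was negative for 30 of 32 members. The median was -0.37 against 0.038 over all genes. The edgeR fit of that interaction took 1 estimate of spread per gene over all 23 libraries and did not pair the fractions of a culture. It called 0 members, where 0.555% of all genes passed (0.204% lower and 0.352% higher). At an unadjusted p under 0.05, 15 were lower, where 5.86% of all genes were. Elovl6 (-0.73, SE 0.19, adjusted p = 0.0977) and Idi1 (-0.79, SE 0.244, adjusted p = 0.146) had the smallest p in edgeR, and DESeq2 called both lower, with Srebf2 and Fdps, where it called 1.67% of genes lower. Elovl6 passed in edgeR without the PSC5 Rosa library of the PSC fraction, and Idi1 without B4 with T12-LOH.

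Between the fractions of 11 paired cultures, most of the pathway was lower in PSCs. Of 32 members 27 were lower in PSCs and 2 higher (Fads1 and Acaca), where 73.9% of all genes passed (37.6% lower and 36.3% higher). All 7 mevalonate genes and all 11 late sterol genes were lower, with medians of -1.22 and -1.27, while the fatty acid genes had a median of -0.64 and regulation and transport one of -0.10. Srebf2, Scap and Insig1 did not pass (-0.10, 0.095 and -0.062). Tm7sf2 had the widest gap of the members, at 2.85 to 12.2 CPM in the 12 PSC libraries and 38.2 to 107 CPM in the 11 organoid libraries (-2.81, SE 0.193, adjusted p = 2.01e-08). Sc5d was at 81.8 to 158 CPM in PSCs and 263 to 508 CPM in organoids (-1.72, SE 0.111), and Dhcr7, which makes the final reduction to cholesterol, at 13 to 29.6 CPM and 59.2 to 75.1 CPM (-1.77, SE 0.12).

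Acat2 and Hmgcs1 had the smallest p of the mevalonate genes, Acat2 at 100.1 to 183 CPM in PSCs and 241 to 332 CPM in organoids (-1.04, SE 0.0874), and Hmgcs1 at 132 to 381 and 521 to 784 CPM (-1.42, SE 0.129). Neither overlapped between fractions. Stard4 was lower by 0.90 on the log2 scale (SE 0.11) and Srebf1 by 0.55 (SE 0.0866), each in 11 of 11 cultures. Acss2 was at 8.85 to 31.2 CPM in PSCs and 24.2 to 80.2 CPM in organoids (-1.37, SE 0.127), and lower in 11 of 11. Fads1, the delta-5 desaturase, ran the other way, at 187 to 435 CPM in PSCs and 58.1 to 92.1 CPM in organoids, with no overlap (1.89, SE 0.131, adjusted p = 2.08e-08). Leaving out 1 culture at a time, 26 of the 29 calls held each time, and Mvk, Nsdhl and Fads2 were lost in at least 1 case.

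Levels of different genes were compared in TPM, the deposited transcript levels scaled by length and library size. Scd2 was the highest member in both fractions, at 295 to 800 TPM in PSCs and 848 to 1583 TPM in organoids, and Fdps the second, at 123 to 432 and 399 to 550 TPM. The lowest members by mean TPM were Tm7sf2 (12.8 TPM) and Acss2 (14.2 TPM) in PSCs and Acaca (27.5 TPM) and Acss2 (30.0 TPM) in organoids. Fads1 ranked sixth of the members in PSCs, with a mean of 160 TPM, and near the bottom in organoids, with 34.3 TPM. The TPM ratio of Fads1 to Fads2, consecutive desaturases of polyunsaturated fatty acids, lay at 1.17 to 1.40 for PSCs and at 0.244 to 0.300 for organoids. That of Scd2 to Scd1 was 1.70 to 4.94 in PSCs and 5.06 to 6.89 in organoids, and that of Srebf2 to Srebf1 2.82 to 3.92 and 1.88 to 2.64. None of these 3 ratios overlapped between the fractions.

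**Figure D5:**
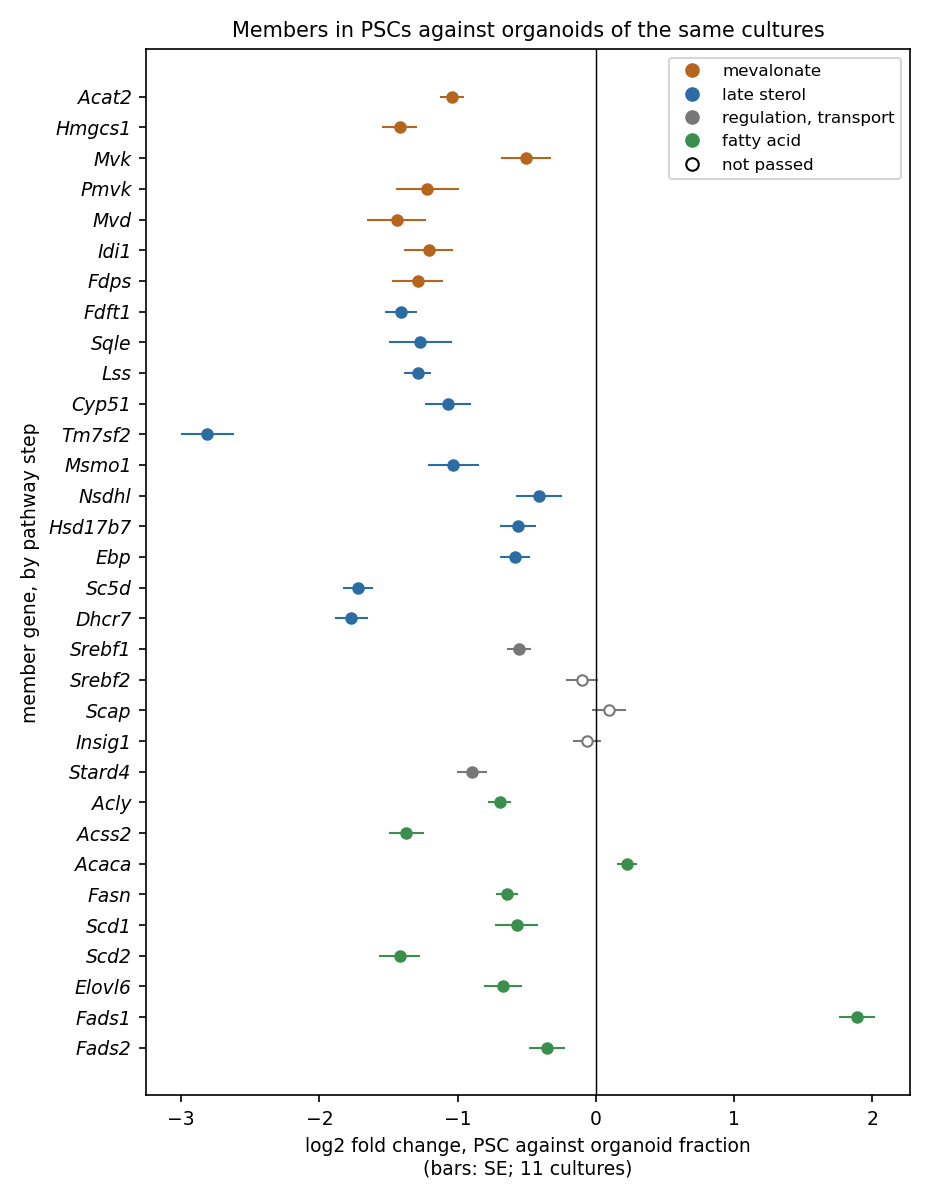
Log2 fold change of each member in PSCs against organoids of the same culture (x axis), with bars of 1 SE over 11 cultures, colours for pathway steps and open points where the adjusted p was not under 0.05. All 18 mevalonate and late sterol genes lie below 0, Tm7sf2 at -2.81, and Fads1 is farthest to the right at 1.89, ahead of Acaca at 0.23.

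The organoid lines, grown with the same PSC4 lines, had their own patterns. In T12-LOH against T6-LOH, 19 members were lower and 5 higher, where 62% of all genes passed (30.8% lower and 31.2% higher). Sqle was at 211, 243 and 238 CPM in T12-LOH and at 753, 765 and 770 CPM in T6-LOH (log2 difference -1.73, SE 0.0576, adjusted p = 1.8e-08), the largest difference of the members, and at 410 and 418 CPM in T69A. Acss2 (-1.08) and Scap (-0.94, from 122 to 125 CPM in T6-LOH to 58.6 to 69.5 CPM in T12-LOH) were next. The 5 higher members were Sc5d (0.61), Acly, the ATP citrate lyase (0.58), Idi1 (0.49), Msmo1 (0.36) and Fdps (0.19), so genes of 1 pathway moved in both directions. In T69A against T6-LOH, 14 were higher and 5 lower, where 51.3% of all genes passed (25.3% higher and 26% lower). Scd1 (0.71), Pmvk (0.71) and Tm7sf2 (0.73) were higher in T69A, and Sqle (-0.86), Hsd17b7, Acat2, Fdft1 and Cyp51 lower. T69A had 2 organoid libraries only.

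T6-LOH organoids grown with PSC5 lines had 1 member lower than those grown with PSC4 lines, Insig1 (-0.44, SE 0.0537, adjusted p = 0.0121), where 0.745% of all genes passed (0.387% lower and 0.358% higher). It was at 279, 294 and 282 CPM with PSC5 Rosa, C5 and D4 and at 356, 397 and 409 CPM with PSC4 Rosa, A3 and B4, with no overlap. The call was lost without the A3 library, and 2 members passed without the WT library of either parent. DESeq2 called 8 members lower, where it called 1.81% of genes lower, and 26 of 32 had a negative difference. In the PSC fraction of the same cultures Insig1 was also lower with PSC5 than with PSC4, as given above.

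Other genes of the pathway were read from 4 further lists. In PSCs with the knockout, edgeR called 0 of 9 genes of the SREBP machinery, 0 of 11 of isoprenoid use, 0 of 14 of sterol handling and 0 of 29 measured genes of fatty acid handling. At an unadjusted p under 0.05 these lists had 2 lower, none, 2 lower, and 1 lower with 3 higher, or 8 genes in all, where 13.5% of all genes differed. Insig2, a relative of Insig1, had a log2 difference of -0.34 (adjusted p = 0.263). Abcg1, a sterol exporter, had one of -3.16 (adjusted p = 0.173), at levels of 0.200 to 0.730 CPM in WT and 0 to 0.222 CPM in KO. Acadm, of mitochondrial fatty acid oxidation, had one of -0.38 (adjusted p = 0.248). List medians lay between -0.058 and 0.026, while the medians of the 4 member steps were -0.28 or lower. Members and lists were both chosen with earlier results known, so this contrast is a description only.

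In organoids grown with KO PSCs, 9.16% of all genes passed (5.34% lower and 3.82% higher). Of 13 measured sterol handling genes, 3 fell and 0 rose. These were Abcg1 (-0.63, adjusted p = 0.0169), the oxysterol receptor gene Nr1h2 (-0.26, adjusted p = 0.022) and the lipoprotein receptor gene Vldlr (-0.32, adjusted p = 0.0229). Of 29 measured fatty acid handling genes, 4 fell and 2 rose. Acacb, the mitochondrial acetyl-CoA carboxylase, fell by 1.01 (SE 0.168, adjusted p = 0.00659), from 3.63 to 8.35 CPM to 2.26 to 4.12 CPM, and the lipid droplet coat gene Plin2 by 0.54 (SE 0.0825, adjusted p = 0.00659), from 83.6 to 243 CPM to 56.9 to 181 CPM. The citrate carrier gene Slc25a1 fell by 0.24, while Cpt1a, which admits fatty acids to mitochondria, rose by 0.25 (adjusted p = 0.0237). Of the SREBP machinery Erlin1 rose by 0.26 and of isoprenoid use Fnta by 0.21 and Pdss1 by 0.34, with 0 lower in either list.

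Between the fractions the other lists were mixed, where 73.9% of all genes passed (36.3% higher in PSCs and 37.6% lower). Of the SREBP machinery 5 genes were higher in PSCs and 3 lower, among them the site 1 and site 2 protease genes Mbtps1 (1.38) and Mbtps2 (0.49), both higher. Of sterol handling 6 were higher and 5 lower, with the oxysterol enzyme gene Ch25h (9.74) and the exporter gene Abca1 (7.42) far higher in PSCs and the esterifying enzyme gene Soat1 (-1.0) lower. Of 31 measured fatty acid handling genes 21 were lower and 8 higher, with the malic enzyme gene Me1 at -2.63 and Pparg at -3.18.

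Over the 12 PSC libraries, the 10 protein-coding genes outside these lists whose levels followed the mean of the mevalonate and late sterol members most closely were Erg28, Prcc, Igfbp6, Mcub, Pcyt2, Hr, Stx4a, Lamtor2, Papss1 and Coq9. Pearson's r was between 0.953 and 0.972, on log2(CPM + 0.5) after taking out the mean of the co-culture, among 12045 genes ranked. Of the members that the mean did not include, Fads2 (0.971), Scd2 (0.967), Fads1 (0.954), Stard4 (0.944), Elovl6 (0.939), Srebf2 (0.937), Srebf1 (0.929) and Fasn (0.915) followed it. Acly (0.8498), Insig1 (0.8465) and Acss2 (0.8056) followed it less closely. Scd1 (0.266) and Acaca (-0.0999) did not, and Scap ran against it (-0.777). These values describe 12 libraries that share 6 PSC lines.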

How the data were processed

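RNA was sequenced from sorted PSC and organoid fractions. Per the submitters' processing notes, the authors quantified reads with Salmon 1.9.0 against a mouse reference of build GRCm39, and they deposited estimated counts and TPM per transcript for each library. Salmon's settings and the libraries' strand were not given in the sources used here, so reads of overlapping or antisense genes cannot be told apart. Reads shared by paralogs were split between them by estimate. Estimated counts were summed per gene through transcript identifiers (99.0% of transcripts matched, with 0.364 to 0.443% of counts unmatched) and rounded. The 32 members and all lists were chosen with earlier results of these data known. The deposited TPM values were summed per gene to compare levels between genes. CPM were scaled by trimmed mean (TMM) factors over all 23 libraries.

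Tests used edgeR 4.0.16 (quasi-likelihood, robust, filterByExpr, TMM, R 4.3.3) on all genes, with Benjamini-Hochberg adjustment and a threshold of 0.05. The PSC and organoid KO comparisons had co-culture as a block, and the fraction comparison had culture. Comparisons of PSC4 clones had organoid line, and those of partners and of organoid lines had PSC line. Comparisons of PSC5 with PSC4 were adjusted for PSC genotype, in either fraction. The interaction of knockout and parent had co-culture as a block, and that of knockout and fraction had co-culture within each fraction. SE is the log2 fold change divided by the square root of F. Alternatives were DESeq2 1.42.0, limma 3.58.1 with PSC line as a random effect, RLE scaling, no filter, no block, counts summed per PSC line, and leaving out libraries or T69A. No 2 libraries of the same group (fraction and PSC genotype) agreed within sampling noise (lowest chi-square per degree of freedom 10.2). Libraries of different groups were not compared in this way. The scripts were tested on simulated counts.

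Members were open to naming in every comparison. Values by library or range were given for Hmgcs1, Fdps, Sqle, Lss, Srebf2, Srebf1, Insig1, Fasn, Scd1 and Scd2 and for the 2 members of each step with the smallest p in the KO and fraction comparisons. Other lists give up to 4 genes with the smallest p.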

Additional observations from a re-analysis of the deposited data

Results flagged for a closer look

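Among organoid libraries grown with KO PSCs, T69A with B4 stood far above the other 6 for the desaturases. Scd1 was at 722.4 CPM there, against 513.2 CPM in the next library and 377.8 CPM in the lowest. Scd2 was at 5236 CPM, against 3816 and 2882 CPM. The 9 fatty acid genes summed to 7958 CPM, against 6065 and 5108 CPM. It is the single T69A library of that group, and T69A with WT PSCs was higher still, at 958 CPM for Scd1 and 6080 CPM for Scd2. Of 56 groups checked in this way 3 were found, and chance gives about 1 in 20.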

How the results depend on the processing

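Library numbers are not shared between groups and pair no libraries, so libraries were matched by co-culture or culture as a block. RLE scaling gave the same member counts and step directions in both KO comparisons. DESeq2 called more members than edgeR in PSCs with the knockout (6), in the difference between fractions (4) and in A3 (6). It also did so in PSC4 cells with T69A (1), between parents (5) and in T6-LOH organoids (8). Its shares of all genes for these are given above. In T6-LOH organoids edgeR itself called 5 members with no filter on low counts, and its share of all genes in that run is not given here. In PSC4 cells with T12-LOH DESeq2 called 2 members, and its share of all genes there is not given here. By edgeR 1 member passed there, where 17.3% of all genes passed. The count of all genes called in KO PSCs moved from 14 to 586 with DESeq2, 23 with no filter, 4 with no co-culture block, 6 without clone B4 (chosen after seeing the data), and 0 without T69A, with the random effect or with counts summed per line. In organoids the 7 members and 1351 genes became 0 and 0 with no block and 2 and 418 without T69A.

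With 1 library left out, members and genes called were 0 to 0 and 0 to 51 in KO PSCs (0 without any 1 of Rosa, A3 or B4 with T6-LOH or Rosa with T12-LOH, and 51, 23 and 22 without PSC5 Rosa, C5 and D4), 2 to 7 and 203 to 1832 in organoids, 0 to 1 and 15 to 340 for the difference between fractions, 0 to 5 and 161 to 1311 for A3, 19 to 27 and 5427 to 6686 for B4, 7 to 22 and 5137 to 6932 for A3 against B4, 0 to 5 and 902 to 2622 for T12-LOH partners, 0 to 0 and 1 to 856 for T69A partners, 0 to 0 and 0 to 3 for parents, and 0 to 0 and 0 to 2 for their KO difference, which could not be estimated without PSC5 Rosa. They were 22 to 25 and 7831 to 9164 for T12-LOH organoids, 15 to 20 and 5572 to 7694 for T69A organoids, 0 to 2 and 0 to 243 for T6-LOH organoids, and 26 to 29 and 11577 to 11830 for the fractions. Step medians in KO PSCs (mevalonate, late sterol, regulation, fatty acid, all) were -0.80 to -0.50, -0.59 to -0.37, -0.31 to -0.23, -0.46 to -0.29 and -0.53 to -0.35. In organoids they were -0.12 to -0.097, -0.077 to -0.026, -0.00011 to 0.055, -0.15 to -0.081 and -0.076 to -0.020.

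Small organoid differences that did not pass changed sign, Hmgcs1 to -0.015, Insig1 to -0.030 and Fasn to -0.010 with no block, and Hmgcs1 to -0.0033 (highest 0.070) and Insig1 to -0.058 without the WT library of T6-LOH with PSC4. Srebf2 went to -0.00011 (highest 0.029) without that of T6-LOH with PSC5, and between fractions Insig1 went to 0.012 (lowest -0.098) without T6-LOH with C5. The cause was not tested. Depth was similar across libraries, and the few clones limit the precision.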
